A study of Mus musculus with 2 samples.

Results

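The complement genes *C1qa*, *C1qb*, *C1qc*, *C4b*, *C3*, *C3ar1*, *C5ar1* and *Cfp* were examined in macrophages of the mouse sciatic nerve (SN). They were chosen by name, and all 8 were present among the 54838 annotated genes of both count matrices. The cells came from Flt3-Cre LSL-YFP fl/fl mice, in which a cell that has passed through a stage with *Flt3* expression carries YFP for life. The nerves of 19 male mice aged 10 to 12 weeks were pooled, and macrophages sorted on CD64 and CD45 were separated into YFP-negative cells, which the study treats as embryonic-derived, and YFP-positive cells, which it treats as derived from hematopoietic stem cells. The cells of both groups came from mice of the same genotype, the labels name no treatment, and the mark records past *Flt3*-Cre activity rather than present origin. Each group was 1 pooled library, so no test between the groups was possible, no p-value is given, and all intervals are 95% intervals for counting error only.

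Barcodes with at least 500 UMIs and 200 genes were taken as cells, which gave 1045 YFP-negative cells with a median of 2233 UMIs and 4053 YFP-positive cells with a median of 1484 UMIs. A UMI stands for 1 captured RNA molecule. The cells held 2418044 and 6747554 UMIs, and 7 cell barcodes occurred in both libraries. All 8 macrophage markers of the list used were detected in both libraries, with summed levels of 2903 and 2888 CPM, which are UMIs of a gene for each 1000000 UMIs of the cells. *Cd3e*, *Cd3g*, *Trac*, *Cd79a*, *Ms4a1*, *S100a8*, *S100a9* and *Ly6g*, which mark T cells, B cells and neutrophils, had no UMI. Other markers of these cells had some: *Cd79b* had 140 UMIs in YFP-negative and 363 in YFP-positive cells, *Csf3r* 40 and 79, *Cd3d* 1 and 6, and *Cd2* 0 and 3. Markers of other nerve cells were present: the summed level of 7 Schwann cell markers was 699 CPM in the YFP-negative and 640 in the YFP-positive cells. That of 7 fibroblast markers was 71.5 and 171, that of 6 mural cell markers 9.93 and 115, and that of 6 endothelial markers 92.6 and 62.5.

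Complement is a cascade of proteins that tag microbes, debris and, in nervous tissue, synapses for removal by phagocytes. The classical pathway starts when C1q, assembled from the A, B and C chains, binds its target and its partner proteases cleave C4 and C2, and all pathways meet at the cleavage of C3. Properdin, the product of *Cfp*, stabilizes the alternative pathway enzyme that cleaves C3, and the small fragments C3a and C5a act on cells through the receptors C3ar1 and C5ar1. Macrophages and microglia are known as main sources of C1q, whereas the liver makes most C3 and C4 of the blood.

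The 8 genes covered a wide range of levels, and their order was the same in both libraries. The C1q chains were among the most abundant transcripts of these cells, ranking 11 to 20 in the YFP-negative and 15 to 21 in the YFP-positive library. *C5ar1*, *C3ar1*, *Cfp* and *C4b* followed in that order, and *C3* was barely detected. UMIs were counted once per molecule, so levels of different genes were set side by side without a correction for length. Between the libraries, 1 of the 7 genes with a mean of at least 20 CPM was at least 1.5-fold apart, *C4b*, which was lower in YFP-positive cells. Of all 5531 genes at that level, 404 (7.3%) were at least 1.5-fold apart, 85 (1.54%) higher and 319 (5.77%) lower in YFP-positive cells. The median log2 ratio was -0.014 over the 7 genes and -0.0024 over all genes.

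**Figure D1:**
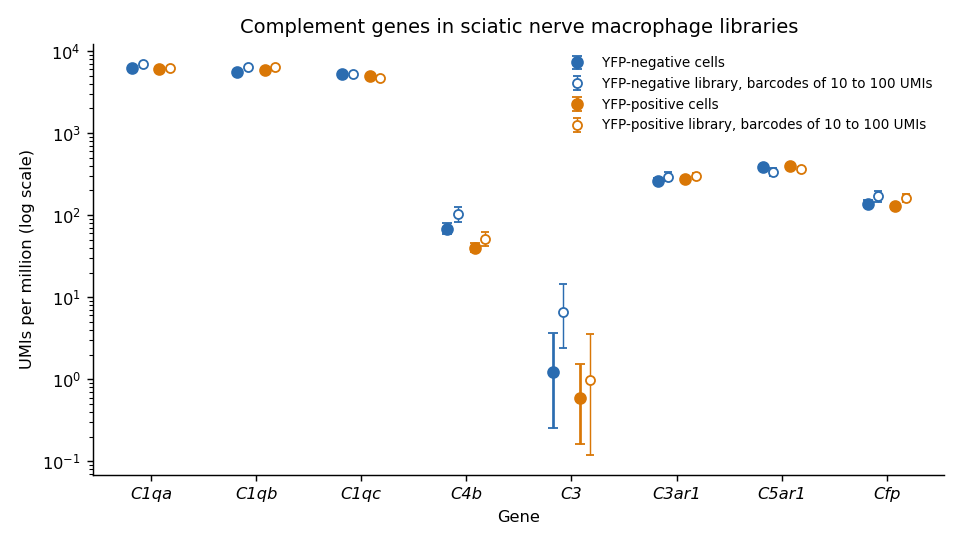
Level of each complement gene in CPM (log scale) in cells (filled points) and in barcodes of 10 to 100 UMIs, which hold mainly free RNA (open points), of the YFP-negative (blue) and YFP-positive (orange) libraries; bars are exact Poisson 95% intervals. The C1q chains lie between 5023 and 6161 CPM in cells, and *C3* lies at about 1 CPM there. *C4b* is the gene with the clearest gap between the libraries in cells, and its free RNA differs in the same direction.

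The 3 C1q chains came from neighbouring genes on the minus strand of chromosome 4 (GRCm38, GENCODE M21), *C1qb* at chr4:136880129-136886187, *C1qc* at chr4:136889804-136893065 and *C1qa* at chr4:136895917-136898803, a stretch of 18675 bases. The identifiers are ENSMUSG00000036905, ENSMUSG00000036896 and ENSMUSG00000036887. *C1qa* had 6161 CPM in YFP-negative cells (6062 to 6260) and 6101 in YFP-positive cells (6042 to 6160). *C1qb* had 5506 (5413 to 5600) and 5906 (5848 to 5965), and *C1qc* 5253 (5162 to 5346) and 5023 (4969 to 5076). The log2 ratios of YFP-positive over YFP-negative cells, computed with 1 CPM added, were -0.014 for *C1qa* (-0.041 to 0.013), 0.10 for *C1qb* (0.073 to 0.13) and -0.065 for *C1qc* (-0.094 to -0.035). Thus *C1qb* was slightly higher and *C1qc* slightly lower in the YFP-positive library beyond counting error, but the spread between libraries of the same kind is unknown. Among cells of under 1000 UMIs *C1qb* was lower in the YFP-positive library, as given below. With equal weight for each cluster of cells described below, *C1qc* turned to 0.042. That weighting counts a cluster with markers of other cell types, which held 12 YFP-negative cells, as much as any other. In a separate setting, with UMIs summed over all cells outside that cluster, *C1qc* was -0.061. Equal weight without that cluster was not tested. Together the chains took 1.69% of the UMIs of YFP-negative and 1.70% of those of YFP-positive cells.

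The C1q chains moved together across cells, as described below, and the bases just before the starts of *C1qb* and *C1qc* are shown. The promoter sequences used held none for *C1qa*. The motifs searched on both strands were GAGGAA, as bound by the ETS factor PU.1 and read as TTCCTC on the other strand, TGCTGA, a half-site of MAF factors and read as TCAGCA on the other strand, and CACGTG, an E-box. No matches overlapped, and capitals mark them. The sequences are from RefSeq on GRCm38.p6, run 5′ to 3′ along the gene's strand, the minus strand, and end at the base before the first exon of GENCODE M21, at chr4:136886188-136886450 and chr4:136893066-136893164.
C1qb: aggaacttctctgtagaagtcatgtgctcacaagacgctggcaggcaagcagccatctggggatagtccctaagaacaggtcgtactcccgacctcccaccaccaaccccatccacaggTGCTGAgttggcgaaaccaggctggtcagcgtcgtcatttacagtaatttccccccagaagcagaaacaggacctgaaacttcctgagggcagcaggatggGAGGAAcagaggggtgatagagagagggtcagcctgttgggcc
C1qc: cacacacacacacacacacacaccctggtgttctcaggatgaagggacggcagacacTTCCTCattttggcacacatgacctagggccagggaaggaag

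The PU.1-type motif began 43 bases before the first exon of *C1qb* and, on the other strand, 42 bases before that of *C1qc*. It was present in 24.4% of all 32851 promoter windows of 263 bases and in 9.91% of those of 99 bases. Here and below, these windows are the first bases of each gene's promoter sequence, cut to the stated length. They were not set to end at the first exon of each gene, as the windows shown were, so positions relative to the start differ. *C1qb* also held the MAF half-site, 144 bases before the first exon, as did 17.0% of windows of that length. No E-box was found in either window, against 6.41% and 1.73% of all windows. These matches describe letters and not bound sites.

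C1q UMIs were found in nearly every cell. Without thinning, 4 of 1045 YFP-negative and 18 of 4053 YFP-positive cells had no UMI of any chain, and all 4 and 14 of the 18 belonged to a cluster with markers of mural cells, fibroblasts and Schwann cells. After each cell was thinned to 500 UMIs, the YFP-negative cells had a mean of 8.64 ± 4.62 C1q UMIs (SD over 1045 cells) and the YFP-positive cells 8.30 ± 4.31 (4053 cells). The median was 8 in both, the 5th percentile 2 in both, and the 95th percentile 17 and 16. At this depth 12 YFP-negative cells (1.15%, exact binomial interval 0.595 to 1.997) and 38 YFP-positive cells (0.938%, 0.664 to 1.28) had none, more than the 0.0164% and 0.0232% that an even C1q level in all cells would give. The variance over the mean of the summed chains was 2.48 and 2.24, where pure counting gives about 1, so C1q content differed between cells. Single chains had 1.43 to 1.60 in YFP-negative and 1.30 to 1.61 in YFP-positive cells. Genes of 2000 to 10000 CPM had medians of 1.26 and 1.17. All these values include the cells of the cluster with markers of mural cells, fibroblasts and Schwann cells.

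**Figure D2:**
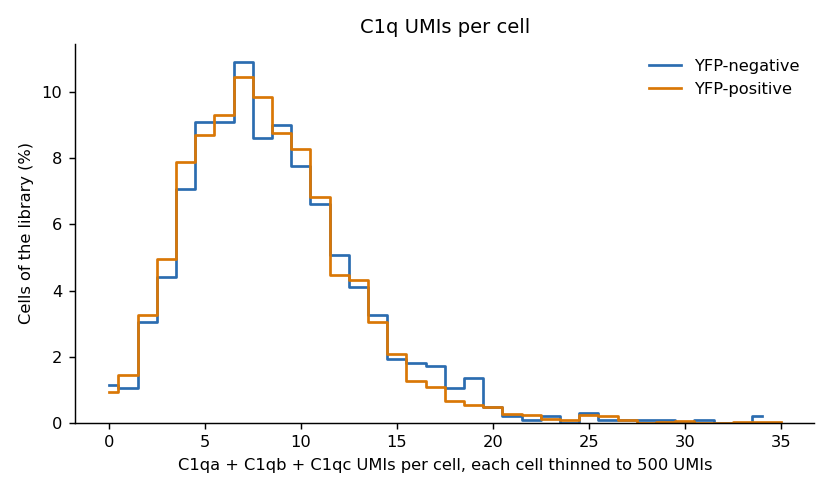
Share of cells (%) by the number of *C1qa*, *C1qb* and *C1qc* UMIs summed per cell after thinning to 500 UMIs, for the YFP-negative (blue) and YFP-positive (orange) libraries. Both distributions have a median of 8 UMIs, and few cells lie at 0.

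*C1qa* alone was seen in 92.2% of YFP-negative cells (90.4 to 93.7) and in 90.1% of YFP-positive cells (89.1 to 91.0) at 500 UMIs, *C1qb* in 88.2% and 89.6%, and *C1qc* in 89.7% and 88.5%. All 3 chains were seen in 75.2% and 73.9% of cells. Free RNA was rich in C1q too: barcodes of 10 to 100 UMIs had 6849 and 6249 CPM of *C1qa*, so that an equal amount of free RNA would show *C1qa* in 96.8% and 95.6% of cases. The share of cells with a UMI therefore cannot tell expression from free RNA for C1q. In the cluster with markers of mural cells, fibroblasts and Schwann cells, however, *C1qa* was seen in 2 of 12 YFP-negative cells (16.7%, 2.09 to 48.4) and 45 of 85 YFP-positive cells (52.9%, 41.8 to 63.9). Those cells had median depths of 950 and 984 UMIs before thinning, against 2257 and 1490 in the other clusters, where the shares were 93.0% and 90.9%.

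Across cells thinned to 1000 UMIs, 895 YFP-negative and 2869 YFP-positive, the C1q chains varied together. Pearson's r was 0.40 and 0.37 for *C1qa* with *C1qb*, 0.38 and 0.32 for *C1qa* with *C1qc*, and 0.36 and 0.28 for *C1qb* with *C1qc*. The other pairs of the 7 genes lay between -0.09 and 0.12. Cells of 1 library share its preparation, and r is limited by the few UMIs per cell, so these values are descriptions. The gene closest to the summed C1q chains among 2625 genes was *Apoe*, a lipid carrier made by macrophages, with r of 0.35 and 0.28. It was followed by *Cst3* (0.29 and 0.26), which encodes the protease inhibitor cystatin C, *Cd74* (0.32 and 0.23), the invariant chain of MHC class II, and *Lyz2* (0.37 and 0.21), lysozyme. *H2-Ab1*, *Itm2b*, *Fcer1g*, *Lgmn*, *Cd81* and *H2-D1* completed the 10 highest, with r between 0.16 and 0.29. The 5 lowest genes, *Rps29*, *Rpl37a*, *Rpl32*, *Rps28* and *Rpl36*, all encode ribosomal proteins, and *Rps29* had -0.26 and -0.20. Because r is limited by few UMIs, both ends of this ranking favour abundant genes. The 10 highest had means over the libraries of 610 to 25712 CPM, and the 5 lowest of 2880 to 11862 CPM. The 1st and 99th percentiles of all genes were -0.15 and 0.15 in YFP-negative and -0.11 and 0.11 in YFP-positive cells.

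To see where the complement genes differed among the macrophages, cells of both libraries were clustered without any gene of the complement list, so that these genes could not shape the clusters. The cells fell into 10 clusters of 74 to 1091 cells, and both libraries contributed cells to each. A cluster led by *Cd209g*, *Cd209f* and *Ccl8* (56 YFP-negative and 103 YFP-positive cells) had all 9 markers of *Cd209*-high macrophages raised and is called Cd209-high macrophage-like. One of these markers, *Fcna*, is itself a complement gene. A cluster led by *Myl9*, *Myh11* and *Tagln* (12 and 85 cells) had all 6 mural, all 7 Schwann cell and all 6 detected fibroblast markers raised. Of the 4 endothelial markers detected, 3 were raised there too. The others were led by *Fhl3*, *Slc39a1* and *Abhd2*; *Snhg20*, *mt-Co2* and *Trpv4*; *Gpx3*, *Cyr61* and *Tcim*; *S100a4*, *Lgals3* and *Tppp3*; *Il1b*, *Cxcl2* and *Hspa1a*; *Ccl7*, *Ccl12* and *Gm24305*; *Irf7*, *Ifit3* and *Ifit2*; and *Top2a*, *Birc5* and *Nusap1*.

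**Figure D3:**
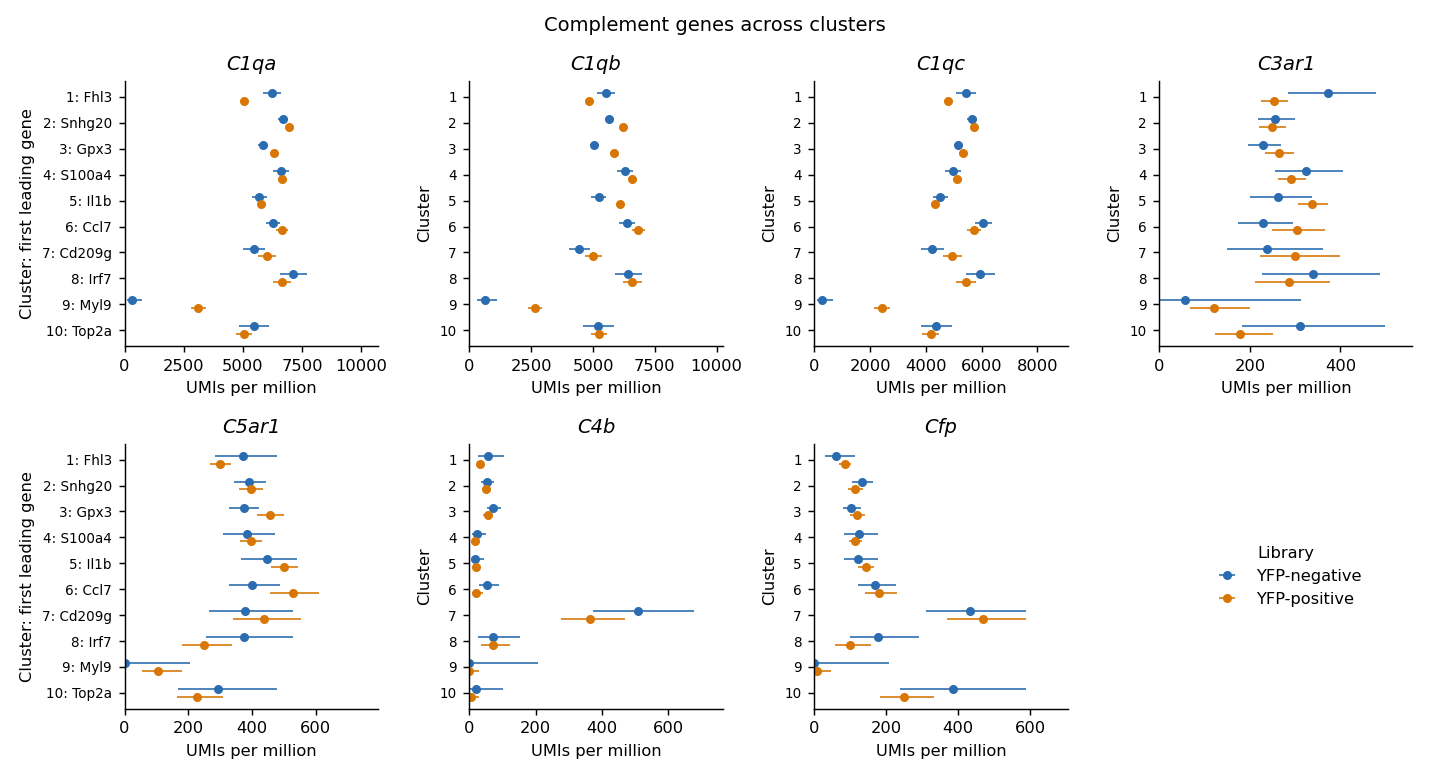
Level of 7 complement genes in CPM in each of the 10 clusters, numbered by size and named by their first leading gene, in YFP-negative (blue) and YFP-positive (orange) cells; bars are exact Poisson 95% intervals. *C1qa*, *C1qb* and *C1qc* are low in the *Myl9* cluster and close to level elsewhere, while *C4b* and *Cfp* stand out in the *Cd209g* cluster of both libraries.

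The C1q chains were close to even over the 9 clusters other than the *Myl9* cluster. Their summed level ran from 14557 CPM in the *Top2a* cluster (14077 to 15050) to 18983 in the *Ccl7* cluster (18638 to 19332), a log2 ratio of 0.38 (0.33 to 0.44). These clusters were picked as lowest and highest by the same values, and the interval of the ratio does not allow for that choice. In the *Myl9* cluster the summed level was 7283 (6846 to 7742), with 1232 in its YFP-negative and 8155 in its YFP-positive cells. There all 7 complement genes tested were at least 1.5-fold lower than in the other cells, where 20.8% of 6161 genes were lower. Macrophage markers were low there as well: none of the 8 was raised. Their mean log2 ratio to the other cells was -1.62, beside a median of -1.30 over the 7 complement genes. The makeup of C1q moved slightly between clusters: *C1qc* gave 32.5% of the C1q UMIs in the *Fhl3* cluster (31.8 to 33.1) and 27.2% in the *Il1b* cluster, while *C1qb* gave 33.0% (32.3 to 33.7) and 37.0%. In the *Il1b* cluster the *C1qb* share was 33.9% in YFP-negative and 37.6% in YFP-positive cells. The cells of the *Fhl3* cluster were shallow, with a median of 958 UMIs, and the *Il1b* cluster had all 10 genes of the dissociation response raised. The part of depth and of the dissociation response in these shifts was not tested.

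*C4b* encodes complement C4, the substrate of the C1 proteases whose fragment binds covalently to target surfaces. It lies at chr17:34728380-34743882 on the minus strand, 65209 bases from *C4a*, a near-identical copy, so that reads shared by the copies may be missing from either count. *C4a* had 7 and 6 UMIs. *C4b* had 166 UMIs, or 68.7 CPM (58.6 to 79.9), in YFP-negative cells and 272 UMIs, or 40.3 CPM (35.7 to 45.4), in YFP-positive cells. The intervals did not overlap, and the log2 ratio was -0.75 (-1.03 to -0.47). A *C4b* UMI was found in 126 YFP-negative and 227 YFP-positive cells, of which 93 and 189 had exactly 1 and none had more than 5 and 4. At 500 UMIs per cell the shares were 4.98% (3.74 to 6.47) and 2.44% (1.99 to 2.97). An equal amount of free RNA would give 4.98% and 2.55%. In the *Myl9* cluster no *C4b* UMI was seen in 12 and 85 cells, which allows shares of up to 26.5% and 4.25%.

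*C4b* differed between the clusters beyond counting error. It reached 416 CPM in the Cd209-high macrophage-like cluster (341 to 504), 509 in its YFP-negative and 363 in its YFP-positive cells, a log2 ratio of 3.44 (3.12 to 3.76) over all other cells. The *Gpx3* cluster, with 61.4 (50.2 to 74.3), and the *Irf7* cluster, with 18 UMIs (41.5 to 111 CPM), came next and did not differ beyond their intervals. It was at least 1.5-fold lower than in other cells in the *S100a4* cluster, with 17.7 (11.7 to 25.7), the *Il1b* cluster, with 19.97 (13.3 to 28.9), and the *Top2a* cluster, with 2 UMIs. Among all genes 4.77%, 6.35% and 13.6% were at least 1.5-fold lower in these clusters, and 2.13%, 3.6% and 25.9% higher. None of the 7 genes passed in either direction in the *Snhg20* cluster (1.62% of all genes higher and 3.37% lower), the *Gpx3* cluster (1.39% and 2.71%), the *Ccl7* cluster (6.19% and 4.29%) or the *Irf7* cluster (11.2% in each direction). The *S100a4* cluster, which also had *Ccr2* and *S100a6* raised, held 8.61% of YFP-negative and 16.6% of YFP-positive cells. Of the 7 *Ccr2* monocyte markers, 5 were detected in YFP-negative and 3 in YFP-positive cells. *Ly6c2* and *Vcan* were seen in YFP-negative cells alone, with 1 UMI each, and *Plac8* and *Chil3* had no UMI in either. *Ccr2*, *S100a4* and *S100a6* were higher in YFP-positive cells, with log2 ratios of 1.23, 1.43 and 1.24. The summed level of the 7 markers was 330 and 793 CPM.

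The Cd209-high macrophage-like cluster held 5.36% of YFP-negative and 2.54% of YFP-positive cells, and 28.3% (21.6 to 35.8) and 21.3% (16.6 to 26.7) of their *C4b* UMIs. All 9 Cd209-high markers were detected in both libraries, and their summed level was 2144 and 1802 CPM. Without this cluster the log2 ratio of *C4b* between the libraries was -0.64 (-0.96 to -0.31), and within it -0.49 (-1.06 to 0.10). Within the other clusters the interval of the ratio included 0 in every cluster with a *C4b* UMI. Most single clusters held few *C4b* UMIs, so these intervals were wide. They do not show that the libraries were alike within clusters. With equal weight for each cluster the log2 ratio was -0.45, below the 1.5-fold threshold. That weighting counts the Cd209-high macrophage-like cluster, where *C4b* was highest, as much as far larger clusters.

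The level of *C4b* also moved with the depth of the cells. In cells of under 1000 UMIs it was 299 CPM in YFP-negative (207 to 418) and 64.5 in YFP-positive cells (48.8 to 83.5), and in cells of 1000 to under 2000 UMIs 136 (103 to 175) and 48.7 (40.1 to 58.6). In cells of at least 2000 UMIs it was 39.4 (31.0 to 49.5) and 28.9 (23.6 to 35.04), a log2 ratio of -0.44 (-0.87 to 0.0020). The fall with depth was present inside the Cd209-high macrophage-like cluster, from 1306 to 229 CPM in YFP-negative and from 826 to 221 in YFP-positive cells. Outside it, the levels were 124, 111 and 34.0 in YFP-negative and 38.6, 42.3 and 24.7 in YFP-positive cells over the 3 ranges. Why *C4b* differed with depth was not tested.

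**Figure D4:**
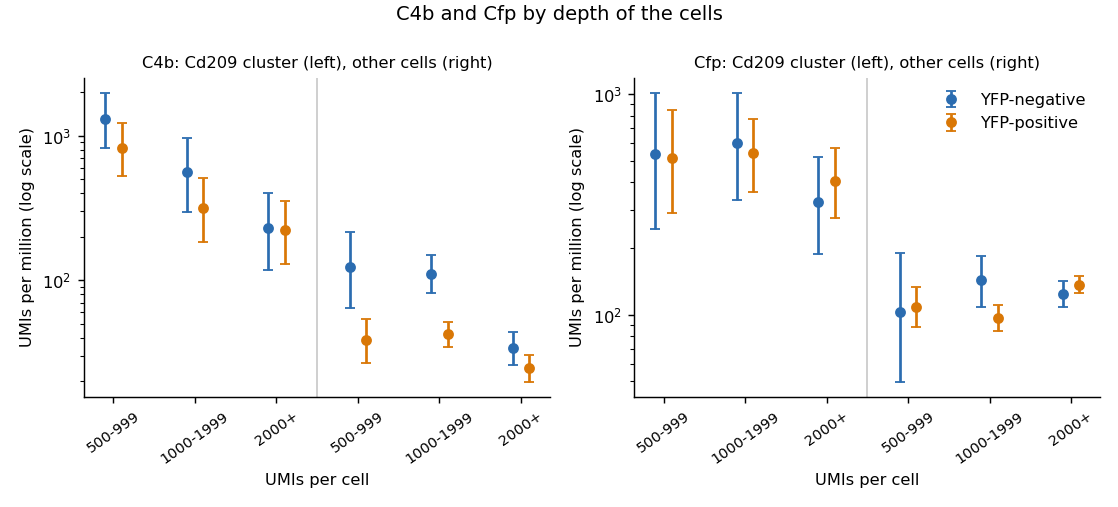
*C4b* (left panel) and *Cfp* (right panel) in CPM (log scale) by the UMIs per cell, in the Cd209-high macrophage-like cluster (left of the grey line) and in all other cells (right), for YFP-negative (blue) and YFP-positive (orange) cells with exact Poisson 95% intervals. *C4b* is lowest in the deepest cells in both places, while *Cfp* differs mainly between the cluster and the other cells. Among the other cells of 1000 to under 2000 UMIs, *Cfp* is also lower in the YFP-positive library, with a log2 ratio of -0.56 (-0.98 to -0.12).

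*Cfp*, which encodes properdin, lies at chrX:20925454-20931555 on the minus strand. It had 139 CPM in YFP-negative (124 to 154) and 128 in YFP-positive cells (120 to 137), a log2 ratio of -0.11 (-0.30 to 0.070). In cells of 1000 to under 2000 UMIs the ratio was -0.65 (-1.03 to -0.25), with 168 and 107 CPM. It was -0.45 (-1.16 to 0.33) in shallower and 0.13 (-0.087 to 0.36) in deeper cells. At 500 UMIs a *Cfp* UMI was seen in 6.22% (4.83 to 7.86) and 5.50% (4.82 to 6.25) of cells, at or below the 8.12% and 7.72% of an equal amount of free RNA, and in 0 of 12 and 1 of 85 cells of the *Myl9* cluster. The clusters differed beyond counting error. *Cfp* was highest in the Cd209-high macrophage-like cluster, with 456 CPM (377 to 547), 433 in YFP-negative and 469 in YFP-positive cells, and a log2 ratio to other cells of 1.90 (1.61 to 2.18). The *Top2a* cluster, whose leading genes act in cell division, followed with 281 (218 to 357), 385 and 250 in the libraries. The *Fhl3* cluster had the lowest level of the macrophage clusters, 80.9 (66.0 to 98.1), with 61.1 and 83.8.

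The bases before the first exons of *Cfp*, at chrX:20931556-20931805, and of *C3ar1*, at chr6:122856162-122856407, both on the minus strand, are shown beside those of the C1q genes. Across cells *Cfp* had an r of 0.014 to 0.11 with the C1q chains and *C3ar1* one of 0.014 to 0.098. None of the 3 motifs was found before *Cfp*, where 23.3%, 16.1% and 6.02% of all promoter windows of 250 bases hold the PU.1-type motif, the MAF half-site and the E-box. The window of *C3ar1* held the MAF half-site, on the other strand and 140 bases before the first exon, as did 15.9% of windows of 246 bases, and neither of the other motifs (22.9% and 5.89%). Capitals mark the match, so a MAF half-site was present in the windows of *C1qb* and *C3ar1* and not in those of *C1qc* and *Cfp*.
Cfp: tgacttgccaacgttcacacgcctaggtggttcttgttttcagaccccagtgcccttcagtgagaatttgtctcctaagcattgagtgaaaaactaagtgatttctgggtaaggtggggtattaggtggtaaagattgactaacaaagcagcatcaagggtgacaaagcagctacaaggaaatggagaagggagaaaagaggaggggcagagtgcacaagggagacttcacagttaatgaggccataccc
C3ar1: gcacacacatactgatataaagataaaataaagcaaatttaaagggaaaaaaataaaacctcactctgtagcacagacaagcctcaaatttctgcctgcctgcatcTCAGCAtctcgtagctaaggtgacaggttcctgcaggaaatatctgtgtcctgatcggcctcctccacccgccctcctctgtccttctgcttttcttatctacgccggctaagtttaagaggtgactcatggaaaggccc

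*C4b* and *Cfp* shared their highest cluster, and 32 YFP-negative and 52 YFP-positive cells had a UMI of both. Of the YFP-negative cells with *Cfp*, 15.2% (10.7 to 20.8) also had *C4b*, against 11.3% (9.19 to 13.6) of those without. In YFP-positive cells it was 8.27% (6.24 to 10.7) against 5.11% (4.40 to 5.90). These cells were not thinned, and deeper cells show more of both genes. At 1000 UMIs in every cell, the correlation of *C4b* with *Cfp* was 0.046 and 0.058. Also without thinning, a *C4b* UMI was seen in 10 of 32 YFP-negative cells (31.2%, 16.1 to 50.01) and 20 of 69 YFP-positive cells (29.0%, 18.7 to 41.2) with *Cd209f*, against 11.5% and 5.20% of cells without *Cd209f*. Of 5562 genes, 1143 (20.6%) were at least 1.5-fold higher in the Cd209-high macrophage-like cluster than in the other cells and 797 (14.3%) lower. Of the 7 genes tested there, 2 were higher and none lower, and their median log2 ratio was 0.025, beside 0.086 over all genes.

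*C3*, the central component of all pathways, lies at chr17:57203970-57228136 on the minus strand. It had 3 UMIs in YFP-negative and 4 in YFP-positive cells, each in a cell of its own, while 3 UMIs correspond to 1.24 and 0.445 CPM. These 7 cells fell in the *Snhg20*, *S100a4* and *Il1b* clusters, with 4, 2 and 1 UMIs. The barcodes of 10 to 100 UMIs held 6 and 2 *C3* UMIs. A difference between the libraries was not detectable at this depth.

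Both receptors of the released fragments were detected in many cells. *C3ar1*, the C3a receptor, at chr6:122847138-122856161, had 263 CPM in YFP-negative (243 to 284) and 277 in YFP-positive cells (264 to 289), a log2 ratio of 0.072 (-0.058 to 0.20). *C5ar1*, the C5a receptor, at chr7:16246743-16259540, had 384 (360 to 410) and 402 (387 to 417), a log2 ratio of 0.064 (-0.043 to 0.17). Both genes lie on the minus strand, and the intervals of both ratios include 0. Without the *Fhl3* cluster they did not, with 0.14 (0.0027 to 0.28) for *C3ar1* and 0.13 (0.019 to 0.245) for *C5ar1*. Leaving out any other single cluster kept 0 within both intervals. At 500 UMIs *C3ar1* was seen in 13.0% (11.03 to 15.2) and 12.8% (11.8 to 13.9) of cells and *C5ar1* in 18.2% (15.9 to 20.7) and 16.1% (14.97 to 17.3), where an equal amount of free RNA would give 13.7% and 13.8% for *C3ar1* and 15.6% and 16.6% for *C5ar1*. In the YFP-positive cells of the *Myl9* cluster the shares were 5.88% (1.94 to 13.2) and 7.06% (2.63 to 14.7), and in its 12 YFP-negative cells no UMI was seen.

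*C3ar1* ran over the macrophage clusters from 210 CPM in the *Top2a* cluster (156 to 276) to 326 in the *Il1b* cluster (297 to 357), a log2 ratio of 0.63 (0.21 to 1.08). These clusters were picked as lowest and highest by the same values. The ratio is therefore above 0 by choice, and its interval does not allow for that choice. *C5ar1* was highest in the *Il1b* cluster, with 491 (455 to 529), and in the *Ccl7* cluster, with 476 (423 to 535), which did not differ beyond their intervals. It was lowest in the *Top2a* cluster, with 243 (185 to 314), where it was at least 1.5-fold lower than in other cells. The *Il1b* cluster also had all 6 inflammatory and all 10 dissociation genes raised. Both receptors were often seen in the same cell: of cells with *C5ar1*, 46.6% (42.2 to 51.0) of the YFP-negative and 42.5% (40.1 to 44.9) of the YFP-positive cells had *C3ar1*, against 33.8% and 28.6% of cells without. Cells with more UMIs show more of both genes. At 1000 UMIs in every cell, the correlation of the receptors was 0.083 and 0.011.

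The ratio of *C5ar1* between the libraries turned with depth. In cells of under 1000 UMIs, the YFP-negative cells had 554 CPM (426 to 709) and the YFP-positive cells 380 (340 to 423), while in cells of at least 2000 UMIs they had 353 (327 to 381) and 436 (415 to 458). The log2 ratios were -0.54 (-0.93 to -0.13) and 0.30 (0.17 to 0.44). In the middle range, 1000 to under 2000 UMIs, *C5ar1* had -0.41 (-0.63 to -0.18). The C1q sum turned too, with -0.29 (-0.36 to -0.23) in the shallow and 0.048 (0.029 to 0.068) in the deep cells. In the middle range, unlike *C5ar1*, it had 0.040 (0.0032 to 0.076). *C1qb* alone had -0.25 (-0.37 to -0.13) in the shallow, 0.28 (0.22 to 0.35) in the middle and 0.13 (0.10 to 0.17) in the deep range. Cells of under 1000 UMIs numbered 150 in the YFP-negative and 1184 in the YFP-positive library. The *Fhl3* cluster, with a median of 958 UMIs, held 7.08% of YFP-negative and 25.1% of YFP-positive cells. Depth and cluster makeup therefore differ together between the libraries, and the part of each in these turns was not tested.

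The rest of the pathway was narrow in these cells. Of the 54 complement genes listed, 16 had a mean of at least 20 CPM, 15 had no UMI in either library and the others lay below this level. Of these 16, 1 was at least 1.5-fold apart between the libraries, *C4b*, where 404 (7.3%) of all 5531 genes were. Of the 9 that are not among the 8 genes above, none was, with a median log2 ratio of -0.0058. So few genes cannot be set apart from the share of all genes. Of the 15 genes that start the cascade, the C1q chains and *Fcna*, which encodes ficolin A, reached that level. *Fcna* had 21.5 (52 UMIs) and 18.8 CPM (127 UMIs). Below it were *C1ra*, *C1rb*, *C1s1*, *Colec11* and *Masp1*, and *C1s2*, *Mbl1*, *Mbl2*, *Fcnb*, *Colec10* and *Masp2* had no UMI. None of the 6 terminal pathway genes reached it, with *C7*, *C8a*, *C8b* and *C9* at no UMI.

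*Cr1l*, also known as Crry, a membrane regulator of C3 cleavage, had 65.8 and 75.1 CPM. The other receptors at that level were *C5ar2*, the second C5a receptor, with 43.0 and 49.6, the subunits of complement receptor 3, *Itgam* with 64.9 and 74.7 and *Itgb2* with 63.7 and 73.8, and *Cd93*, *Lrp1* and *Calr*, each named as a C1q binding partner, with 165 and 158, 124 and 123, and 219 and 217. The intervals of these 7 ratios and of that of *Fcna* include 0.

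**Figure D5:**
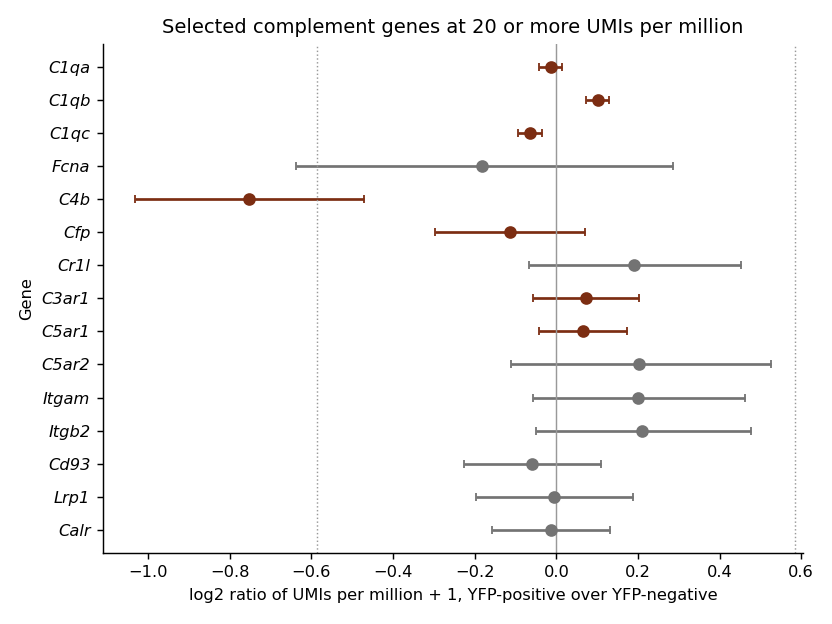
Log2 ratio of CPM plus 1, YFP-positive over YFP-negative, for complement genes with a mean of at least 20 CPM that start the cascade, form its central components, regulate it at the membrane or act as receptors; brown marks the C1q chains, *C4b*, *Cfp*, *C3ar1* and *C5ar1*, bars are 95% counting intervals and dotted lines mark 1.5-fold. Of the genes drawn, *C4b* alone lies beyond a dotted line.

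Between clusters this wider list was less even. In the Cd209-high macrophage-like cluster *Fcna* and *Itgam* were, like *C4b* and *Cfp*, at least 1.5-fold higher than in other cells, and *Cd93* was lower. *Fcna* was left out of the clustering but is 1 of the 9 markers by which this cluster was named. Its rise there is therefore not a separate result. *Fcna* had 321 CPM there (255 to 399), with a log2 ratio of 4.75 (4.32 to 5.17), and *Itgam* 171 (123 to 230), with 1.29 (0.81 to 1.73). The *Fhl3* cluster had 108 CPM of *C5ar2* (91.1 to 128), a log2 ratio of 1.48 (1.19 to 1.77), where 3.69% of 5495 genes were at least 1.5-fold higher. *C5ar2* was at least 1.5-fold lower in the *S100a4*, *Irf7* and *Top2a* clusters, where 4.77%, 11.2% and 13.6% of all genes were lower. In the *Myl9* cluster *C1s1*, *Serping1*, *Clu*, *Vtn* and *Cd59a* were higher, 5 of 20 list genes, where 33.8% of all genes were. In the same cluster 11 of the 20 list genes were lower, where 20.8% of all genes were. The 5 higher genes reached 20 CPM only through that cluster. All 12 *C1s1* UMIs and 20 of the 24 *Serping1* UMIs of YFP-positive cells were found there, and the genes encode a C1 protease and the C1 inhibitor.

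The genes most like each member were sought across the 17 groups of 1 cluster and 1 library with at least 50 cells, by Pearson's r of log2(CPM + 10) over 5531 genes. These groups share libraries and differ in size, so r is a description. For *C4b* they were *Stard8* (0.95), *Pias1* (0.93) and *Clec10a* (0.92), and without the *Myl9* cluster r was 0.93, 0.91 and 0.91 over 16 groups. For *Cfp* they were *Grn* (0.93), which encodes progranulin, *Sulf2* (0.90) and *Cd36* (0.88). For *C1qa* they were the other chains and *Ctsz* (0.92), for *C1qb* *C1qa*, *Ctsz* (0.93) and *Cyba* (0.91), and for *C1qc* *Tyrobp* (0.96), *Fcer1g* (0.94) and *C1qa* (0.94). For *C3ar1* they were *Tnfaip8l2*, *Rilpl2* and *Mrpl9*, with r of 0.84 to 0.86, and for *C5ar1* *Ndfip1*, *Rpl10* and *Rps15*, with 0.85 to 0.86. Most of these values rested in part on the *Myl9* cluster: without it *C5ar1* with *Rps15* was 0.46 and *C1qa* with *Ctsz* 0.73, while *C1qc* with *Tyrobp* was 0.91.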

How the data were processed

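Macrophages sorted by YFP from pooled sciatic nerves were profiled on the 10X Genomics platform with v2 chemistry, as 1 library per group. The authors deposited raw UMI counts per gene and barcode for all barcodes, mapped to GRCm38 with Cell Ranger. The submitters' processing notes name version 3.0.2 and Seurat 2.2.0, while the methods name an earlier Cell Ranger. The release of the gene annotation is not given in the sources used here, and 54809 of 54838 gene IDs, with all 8 members, matched GENCODE M21. The study kept cells by mapped reads, which the counts do not hold, so barcodes with at least 500 UMIs and 200 genes were used, more in each library than the study captured. These cells held 66.2% and 72.0% of all UMIs. Doublets were not removed: Scrublet marked 3 and 0 cells, and whether it missed doublets was not tested.

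The count tables were handled in pandas 2.3.3 and scipy 1.17.1 (numpy 2.4.6, Python 3.11.15), and plots were made with matplotlib 3.10.9. Levels are UMIs summed over cells and scaled to CPM, with exact Poisson intervals. Log2 ratios have 1 CPM added and exact conditional binomial intervals, and shares have Clopper-Pearson intervals after thinning. A level counted as apart at 1.5-fold or more with a mean of at least 20 CPM. Clustering used scanpy 1.11.5, igraph 0.11.9 and leidenalg 0.10.2: counts scaled to 10000 and log-transformed, 2000 variable genes without the complement list, 20 principal components, 20 neighbours, Leiden resolution 0.8, seed 0. Scripts were tested on simulated data.

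The genes named are the 8 members, complement genes with a mean of at least 20 CPM (others by name only, and 1 not reported here), the 10 genes most and 5 least correlated with summed C1q across cells among genes with a mean of at least 50, the 3 most like each other member, and the 3 leading genes of each cluster. *Cd209f* and the UMIs of *C4a*, *C1s1* and *Serping1* were added after their values were seen. Members, lists and tests were chosen with earlier results of these data known. Alternatives changed the cell filter, weights, thinning, scaling, pseudocount, free RNA and clusters.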

Additional observations from a re-analysis of the deposited data

Results flagged for a closer look

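The level in barcodes of 10 to 100 UMIs was above that in the cells for the 8 genes in both libraries, except *C5ar1* in both and *C1qc* in the YFP-positive library. For 5 of these values the 95% intervals of the levels did not overlap. In such barcodes of the YFP-negative library, *C1qa* had 6849, *C1qb* 6288 and *C4b* 102 CPM, against 6161, 5506 and 68.7 in its cells. In those of the YFP-positive library, *C1qb* had 6361 and *Cfp* 161 CPM, against 5906 and 128. *C1qc* in the YFP-positive library was lower in such barcodes, with 4689 (4595 to 4784) against 5023 in cells (4969 to 5076), and *C5ar1* had 340 and 363 against 384 and 402, with overlapping intervals. Each group was 1 library, and no sample was set against others of its group.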

How the results depend on the processing

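Each group was 1 library, so no replicate could be left out, and no value has an error between libraries. No paired analysis was possible because each group is 1 library. Depth limits *C3*, with 3 and 4 UMIs, and *C4b* within clusters. Of 112 log2 ratios between the libraries under alternatives, 90 stayed within the counting interval of the reported value. Some alternatives changed too little to move a ratio much. Removing the cells marked by Scrublet took out 3 and 0 cells, and the mitochondrial filter kept 1042 and 4052 cells. The small ratios of *C1qa*, *C1qc*, *C3ar1* and *C5ar1* changed sign under some. *C4b* was lower in YFP-positive cells under all of them, with log2 ratios of -1.14 with cells weighted equally, -1.04 thinned to 500 UMIs, -0.45 with equal weight for each cluster, where no member was 1.5-fold apart (0 in place of 1), and -1.72 with equal weight for each range of depth, an alternative chosen after seeing the data. The other ratios that left their interval, with the cause not tested, were as follows. At 1000 UMIs or more, *C1qa* was 0.027 and *C1qb* 0.14. With cells weighted equally, *C1qa* was -0.095, *C1qb* 0.056 and *C5ar1* -0.086. Thinned to 500 UMIs, *C1qa* was -0.12, *C1qb* 0.048, *C1qc* -0.097, *C3* -1.69, *C5ar1* -0.20 and *Cfp* -0.33. With equal weight for each cluster, *C1qa* was 0.062, *C1qb* 0.14 and *C1qc* 0.042. With equal weight for each range of depth, *C1qa* was -0.15, *C1qb* 0.055, *C5ar1* -0.24 and *Cfp* -0.32. Leaving out the 7 shared barcodes or the Cd209-high macrophage-like cluster, also chosen after seeing the data, moved none out of its interval. Each other cluster was also left out in turn, apart from the 112 ratios. Without the *Fhl3* cluster, *C1qa* was 0.036 and *C1qb* 0.15, and without the *Gpx3* cluster -0.054 and 0.058, all outside their intervals. *Cfp* without the *Gpx3* cluster stayed within its interval, but its own interval excluded 0, with -0.24 (-0.44 to -0.030). No other omission moved a ratio out of its interval. Without a filter on low values, 1435 of 21115 genes were at least 1.5-fold higher and 2664 lower, against 85 and 319.

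Without thinning, where the libraries differ in depth, the difference in the share of cells with a UMI, YFP-positive minus YFP-negative, was -1.46 percentage points for *C1qb*, -6.46 for *C4b*, -5.68 for *C3ar1*, -7.45 for *C5ar1* and -4.58 for *Cfp*, against 1.41, -2.53, -0.18, -2.10 and -0.72 at 500 UMIs. The correlations of the C1q chains were higher over all cells on the log scale: 0.54 and 0.45 for *C1qa* with *C1qb*, 0.47 and 0.41 for *C1qa* with *C1qc*, and 0.50 and 0.38 for *C1qb* with *C1qc*. Of 42 values over clusters, 31 stayed within their interval. At Leiden resolution 0.4, the log2 ratio of the highest over the lowest macrophage cluster was 0.32 for *C1qa*, 0.60 for *C1qb* and 0.37 for *C1qc*, against 0.42, 0.47 and 0.48, and *C4b* in the Cd209-high macrophage-like cluster was 3.79. At resolution 1.2, with 16 clusters in place of 10, it was 0.64 for *C1qa*, 3.25 for *Cfp* and 0.45 for the C1q sum, against 2.48 for *Cfp* and 0.38 for the sum, and *C5ar1* in the inflammatory cluster was 0.68 against 0.37. With 1000 variable genes, it was 0.33 for *C1qc*, and *Cfp* in the cycling cluster was 0.76 against 1.14.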
